A study of Mus musculus with 12 samples.

Results

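The genes described are 9 transcriptional regulators of the monocyte and macrophage lineage, Maf, Id1, Id2, Id3, Mitf, Tfec, Tfeb, Tfe3 and Zeb2, out of 56953 genes in the deposited tables. They were chosen by name, as the large Maf factor, the Id proteins, the Mitf family and Zeb2, and all 9 had a row in the tables and passed the filter on low values in each comparison. The libraries hold myeloid cells sorted from the bone marrow of female C57BL/6J mice aged 8 weeks, which per the study's methods carried Rank cre/+;R26.eYFP fl/+, a lineage tracer in which Cre from the Rank locus switches on eYFP in embryonic macrophages and is not expressed in adult hematopoietic stem or progenitor cells. The 4 groups of 3 libraries were eYFP+ embryonic F4/80hi macrophages, eYFP- adult-derived F4/80hi macrophages, Ly6Chi monocytes and Ly6Clo monocytes, and the study asked how macrophages of embryonic and adult origin differ. The groups are thus sorted by the tracer or by Ly6C, no gene was deleted in any of them, and an eYFP- cell is defined by the absence of a label.

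Maf is a basic leucine zipper factor that acts in the identity of resident macrophages. Id proteins have a helix-loop-helix domain without a DNA-binding region, and they hold E proteins such as Tcf3, Tcf4 and Tcf12 away from DNA. Their genes are classical targets of BMP signalling through Smad proteins. Mitf, Tfec, Tfeb and Tfe3 form the MiT/TFE family, which binds E-box and CLEAR elements at lysosomal, autophagy and, in osteoclasts, bone resorption genes. Tfec is the family member with the narrowest expression, largely in macrophages. Zeb2 is a zinc finger repressor that acts opposite Id2 in several immune lineages.

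Sequences before the annotated start sites are shown for 3 members whose shares of their family's level differed between the cell types, Tfec and Tfeb of the Mitf family and Id2 of the Id family. They were taken from RefSeq (GRCm38.p6), are written 5′ to 3′ on the gene's own strand and stop at the first exon base that GENCODE M21 annotates for the gene. Capitals mark the letters GGAAGT, a PU.1-type core, in Tfec and GGCGCC, a BMP-responsive Smad element, in Id2. The Tfec stretch is chr6:16898442-16898691 (minus strand), the Tfeb stretch is chr17:47736787-47737029 (plus strand) and the Id2 stretch is chr12:25096254-25096342 (minus strand).
Tfec: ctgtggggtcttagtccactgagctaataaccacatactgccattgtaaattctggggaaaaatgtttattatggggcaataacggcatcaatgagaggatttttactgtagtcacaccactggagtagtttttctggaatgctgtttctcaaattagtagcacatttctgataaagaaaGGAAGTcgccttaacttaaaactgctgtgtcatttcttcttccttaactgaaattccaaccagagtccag
Tfeb: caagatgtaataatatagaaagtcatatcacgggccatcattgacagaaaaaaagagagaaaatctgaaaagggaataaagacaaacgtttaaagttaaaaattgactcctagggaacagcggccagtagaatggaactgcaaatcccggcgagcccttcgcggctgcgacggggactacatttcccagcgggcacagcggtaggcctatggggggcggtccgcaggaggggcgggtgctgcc
Id2: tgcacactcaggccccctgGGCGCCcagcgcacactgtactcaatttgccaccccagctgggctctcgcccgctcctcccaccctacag

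The 6 motifs searched, on both strands, were the PU.1-type core GGAAGT, the E-box and CLEAR core CACGTG, the M-box core CATGTG, the Zeb-type box CACCTG, the Maf core TGCTGA and the Smad element GGCGCC. No letter of these motifs overlapped another match in the printed stretches, and the Tfeb stretch held none of them. Windows of 250 bases before the start were present for 7 of the 9 members, in 15 windows. GGAAGT occurred in windows of Tfec and Tfe3, against 19.7% of the 32851 windows of all genes. In Tfec its first base lay 70 bases before the start. GGCGCC occurred in windows of Id2 and Tfeb, against 9.59% of all windows, and TGCTGA in 2 windows of Mitf, against 16.1%. CACCTG occurred in 1 window of Mitf, against 17.2%. CACGTG and CATGTG, present in 6.02% and 12.3% of all windows, were in none of the 15. The Tfec stretch is poor in G and C (39.2%), whereas the Id2 stretch is rich in them (67.4%). These matches are descriptions of letters and not of binding.

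Depth was 26390927 to 48618187 counts per library. The summed TPM (a level that takes gene length into account) of 10 bone marrow macrophage markers was 31246 to 45323 in macrophages and 513 to 1752 in monocytes, 6 Ly6Chi markers summed to 11819 to 12354 in Ly6Chi and 382 to 668 in Ly6Clo monocytes, and 6 Ly6Clo markers to 2411 to 3028 in Ly6Clo and 380 to 510 in Ly6Chi monocytes. GC-rich transcripts (1624 genes with a median GC content of 59.0%) were low in Ly6Clo replicate 2, with a median log2 ratio to the group of -1.40, and in eYFP+ replicate 1, with -0.71. Tfeb is the member richest in GC (63.2%), followed by Id3, Id1 and Tfe3, and Tfeb and Tfe3 had their 2 lowest values of the 12 in these libraries. No batch is labelled. Whether same-numbered libraries share a mouse is not stated, so p-values measure the spread between these libraries.

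Macrophages and monocytes were told apart by most of the 9 regulators, with Maf, Tfec, Id2 and Mitf higher in macrophages and Id1, Id3, Tfeb and Zeb2 higher in monocytes. In all, 8 of 9 passed the test, 4 in each direction, whereas 35.4% of the 22385 genes tested were called, 20.3% as higher and 15.0% as lower in macrophages (DESeq2 Wald test, adjusted p under 0.05). The quasi-likelihood test of edgeR also called 8 members and 35.6% of genes. The log2 fold change weights the 2 groups of each cell type equally. In the plot of differences, the 8 called members sit on both sides of 0 and Tfe3 sits at 0.05. For 3 members, Maf, Id2 and Tfec, the normalized counts of 6 macrophage and 6 monocyte libraries did not overlap, as was the case for 17.7% of all genes tested. As these are bulk samples, fewer cells of a type and less RNA per cell cannot be told apart. Markers of other cell types differed too. Summed TPM of 9 erythroid markers was 8987 to 35363 in macrophage and 357 to 1410 in monocyte libraries, that of 9 neutrophil markers 120 to 2548 and 6725 to 23652, and that of 8 eosinophil, basophil and mast cell markers 792 to 1950 and 2.84 to 567. For 8 dendritic cell markers the sums were 22.1 to 50.7 in macrophage and 126 to 2861 in monocyte libraries. In the same order they were 92.7 to 234 and 0.853 to 35.3 for 9 T and NK cell markers, and 122 to 201 and 2.13 to 77.4 for 6 megakaryocyte markers. In Ly6Clo monocytes 1 T and NK cell and 1 megakaryocyte marker were at 0 in all libraries. No other marker of these lists was at 0 in all libraries of a group, and the part of these lists in the member values was not tested.

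**Figure D1:**
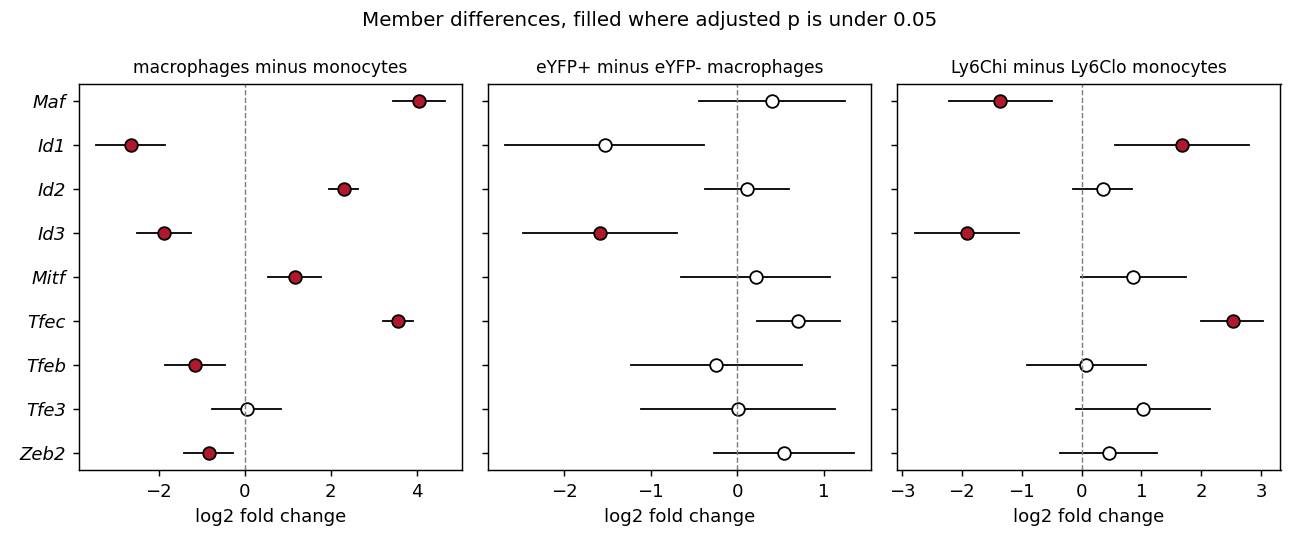
Log2 fold changes (x axis) of the 9 members (y axis) in 3 comparisons from the DESeq2 fit, each with its 95% interval (bars), filled where the adjusted p was under 0.05. Of the members, 8 are filled in macrophages minus monocytes, 1 (Id3) in eYFP+ minus eYFP- macrophages and 4 (Maf, Id1, Id3, Tfec) in Ly6Chi minus Ly6Clo monocytes.

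Maf showed the largest difference between cell types of the 9. It had normalized counts of 7685, 6617 and 6308 in eYFP+ macrophages and 4743, 5850 and 4991 in eYFP- macrophages. They were 309, 231 and 140 in Ly6Chi monocytes and 530, 924 and 288 in Ly6Clo monocytes. All macrophage libraries were thus above all monocyte libraries, and the difference was a log2 fold change of 4.04 ± 0.31 (SE, n = 6 against 6, adjusted p = 7.01e-38 by DESeq2), or 16.5-fold. On the per-length scale Maf stood at 55.1 ± 0.667 TPM (SD, n = 3) in eYFP+ and 43.2 ± 9.01 TPM in eYFP- macrophages. Its order of levels was eYFP+ macrophages, eYFP- macrophages, Ly6Clo and Ly6Chi monocytes. The first 2 of these did not differ beyond the spread, with a log2 difference of 0.40 ± 0.43 and an interval from -0.44 to 1.25, although every eYFP+ library was above every eYFP- library.

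Tfec also had its highest levels in eYFP+ and then eYFP- macrophages. It had normalized counts of 4025, 3541 and 3610 in eYFP+ macrophages, 2033, 2730 and 2054 in eYFP- macrophages, 603, 584 and 583 in Ly6Chi monocytes, and 79.8, 126 and 106 in Ly6Clo monocytes. No group overlapped another. The macrophage excess was a log2 fold change of 3.56 ± 0.18 (adjusted p = 6.67e-85 by DESeq2), and between the extremes, eYFP+ macrophages and Ly6Clo monocytes, Tfec differed by 36.1-fold.

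Id2, which antagonises E proteins, was by far the most abundant member. It stood at 954, 1169 and 1123 TPM in eYFP+ macrophages, 1094, 1002 and 947 TPM in eYFP- macrophages, 210, 239 and 224 TPM in Ly6Chi monocytes and 166, 139 and 225 TPM in Ly6Clo monocytes. The lowest macrophage library was above the highest monocyte library. In normalized counts the macrophages were 4.91-fold higher (log2 fold change 2.30 ± 0.18, adjusted p = 4.44e-37 by DESeq2). Neither the macrophage groups nor the monocyte groups differed from each other beyond their spread, with log2 differences of 0.11 ± 0.25 for eYFP+ minus eYFP- and 0.35 ± 0.25 for Ly6Chi minus Ly6Clo.

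Id1 ran the other way. Its normalized counts were 34, 64.8 and 27.4 in eYFP+ macrophages, 113, 105 and 146 in eYFP- macrophages, 874, 966 and 569 in Ly6Chi monocytes, and 355, 63.0 and 332 in Ly6Clo monocytes. Apart from Ly6Clo replicate 2, a library low in GC-rich transcripts, each monocyte library was above each macrophage library. Id1 was lower in macrophages by a log2 fold change of -2.65 ± 0.41 (adjusted p = 1.06e-09 by DESeq2).

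Id3 was lowest in eYFP+ macrophages and highest in Ly6Clo monocytes. Its normalized counts were 32.9, 62.9 and 84.4 in eYFP+ macrophages, 158, 129 and 254 in eYFP- macrophages, 206, 234 and 149 in Ly6Chi monocytes, and 524, 675 and 1038 in Ly6Clo monocytes. The eYFP- macrophages and Ly6Chi monocytes overlapped, with a log2 difference of -0.13 ± 0.45, whereas the other groups next to each other in the order did not. The lower level in macrophages as a whole, a log2 fold change of -1.88 ± 0.32 (adjusted p = 3.52e-08 by DESeq2), thus joins an eYFP- group at the level of Ly6Chi monocytes with an eYFP+ group below it.

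Summed over Id1, Id2 and Id3, the family stood at 957 to 1175 TPM in macrophages and at 166 to 298 TPM in monocytes. Id2 made up 98.1% to 99.7% of that sum in the macrophage libraries and 79.9% to 86.5% in the monocyte libraries. The remainder differed between the monocyte groups, where Id1 held 15.1% ± 3.26 (SD, n = 3) in Ly6Chi and 5.79% ± 3.79 in Ly6Clo, and Id3 held 2.70% ± 0.455 in Ly6Chi and 12.9% ± 2.37 in Ly6Clo. Neither share overlapped between the monocyte groups. The lowest Id1 share in Ly6Clo, 1.86%, was that of replicate 2, the library low in GC-rich transcripts. The other Ly6Clo libraries held 9.43% and 6.09%, and the lowest Ly6Chi share was 11.3%. The other Id gene, Id4, had group means of at most 36.8 normalized counts, and Tcf3, Tcf4 and Tcf12, which encode the E proteins that Id proteins bind, were not called by DESeq2 or edgeR in any of the 3 comparisons. Of these 4 genes, 1 had an unadjusted p under 0.05 by either tool in macrophages minus monocytes and 0 in the other comparisons. Tcf4 was the most abundant of them in counts, with mean normalized counts of 2933 in eYFP+ and 1946 in eYFP- macrophages, 2752 in Ly6Chi and 4057 in Ly6Clo monocytes.

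**Figure D2:**
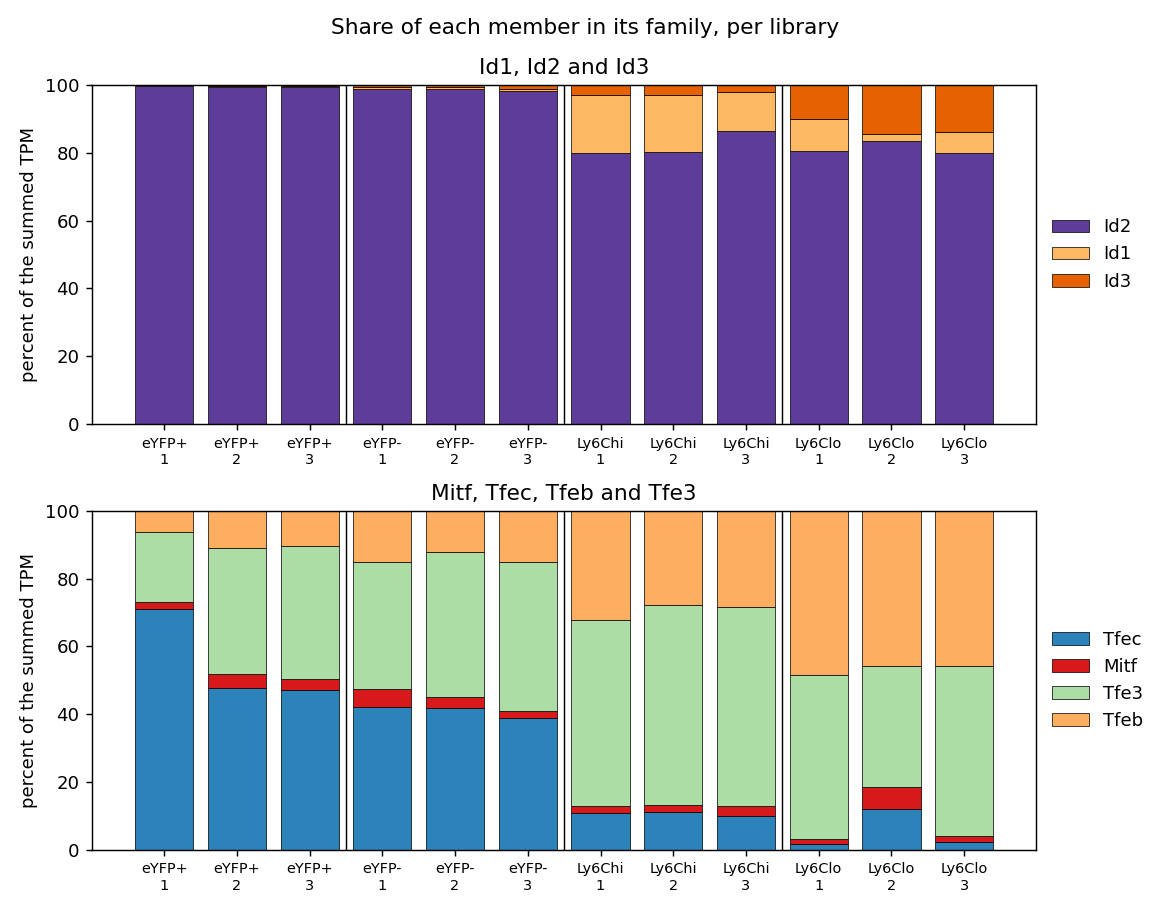
Share of each member (percent of the TPM summed over the family, y axis) in each of the 12 libraries (x axis, by group and replicate), for the Id genes (top) and the Mitf family (bottom). Id2 fills 98.1% to 99.7% of the Id bars in macrophages, and Tfec 38.9% to 71.1% of the Mitf family bars there against 1.83% to 12.0% in monocytes.

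In the Mitf family, the shares of Tfec and Tfeb differed between the cell types. Tfec held 38.9% to 71.1% of the family's summed TPM in macrophages and 1.83% to 12.0% in monocytes, while Tfeb held 6.45% to 15.3% in macrophages and 27.9% to 48.4% in monocytes. These shares did not overlap between the cell types. The highest Tfec share in macrophages and the highest in monocytes were those of eYFP+ replicate 1 and Ly6Clo replicate 2, the libraries low in GC-rich transcripts such as Tfeb and Tfe3, and their part in the share was not tested. Without both, Tfec remained between 38.9% and 47.8% in macrophages and between 1.83% and 11.1% in monocytes. Tfec was the main member in eYFP+ macrophages, whereas Tfec (41.0% ± 1.81, SD, n = 3) and Tfe3 were level in eYFP- macrophages. Tfe3, which is expressed in most cell types, held 32.3% ± 10.4 (SD, n = 3) in eYFP+ and 41.3% ± 3.32 in eYFP- macrophages, and 57.5% ± 2.23 in Ly6Chi and 44.7% ± 8.01 in Ly6Clo monocytes. Mitf, the melanocyte and osteoclast regulator, held at most 6.62% in any library.

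Mitf itself was higher in macrophages by a log2 fold change of 1.16 ± 0.31 (adjusted p = 0.001 by DESeq2). Its normalized counts of 323, 827 and 693 in eYFP+ and 714, 582 and 292 in eYFP- macrophages overlapped with 295, 307 and 426 in Ly6Chi monocytes. They did not overlap with 156, 189 and 221 in Ly6Clo monocytes. No neighbours in its order of levels differed by the test.

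Tfeb, a regulator of lysosome biogenesis, was lower in macrophages by a log2 fold change of -1.15 ± 0.36 (adjusted p = 0.00533 by DESeq2 and 0.0187 by edgeR). Its normalized counts were 479, 1059 and 1048 in eYFP+ macrophages, 948, 1044 and 1061 in eYFP- macrophages, 2321, 1931 and 2161 in Ly6Chi monocytes, and 2765, 628 and 2655 in Ly6Clo monocytes. Apart from Ly6Clo replicate 2, all monocyte libraries were above all macrophage libraries. With limma on log2(TPM + 1) and on log2(TPM + 0.1) the adjusted p was 0.0602 and 0.0702, and 0.159 on log2(TPM + 1) without a filter on low values. After correction for GC content and length the log2 fold change was -2.01 (adjusted p = 4.92e-37 by DESeq2).

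Tfe3 was the member not called. Its normalized counts were 2185, 5239 and 5716 in eYFP+ macrophages, 3437, 5256 and 4388 in eYFP- macrophages, 5748, 5890 and 6459 in Ly6Chi monocytes, and 4007, 703 and 4210 in Ly6Clo monocytes. Macrophages minus monocytes gave 0.05 ± 0.40 on the log2 scale, with an interval from -0.75 to 0.84, which leaves room for a change in either direction. Without Ly6Clo replicate 2 the value was -0.24.

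Zeb2 was lower in macrophages by a log2 fold change of -0.83 ± 0.29 (adjusted p = 0.0155 by DESeq2 and 0.0244 by edgeR). Counts after normalization were 7899, 7591 and 10054 in eYFP+ macrophages and 3539, 9497 and 4517 in eYFP- macrophages. They were 14389, 15197 and 14371 in Ly6Chi monocytes and 13822, 11714 and 6701 in Ly6Clo monocytes. The Ly6Chi libraries were above those of all other groups, while the other groups overlapped with each other. The adjusted p was 0.076 without eYFP+ replicate 2, 0.0522 without eYFP- replicate 1, 0.0611 without eYFP- replicate 3 and 0.054 without Ly6Clo replicate 1, and 0.118 with limma on log2(TPM + 1) without a filter on low values. Zeb2 was called in 19 of 24 other settings, and its log2 fold change ran from -1.1 to -0.69 across them. Zeb2 overlaps the antisense gene Zeb2os, whose group means of 65.6 to 151 normalized counts were far below its own, and whether the counting used strand is not stated.

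**Figure D3:**
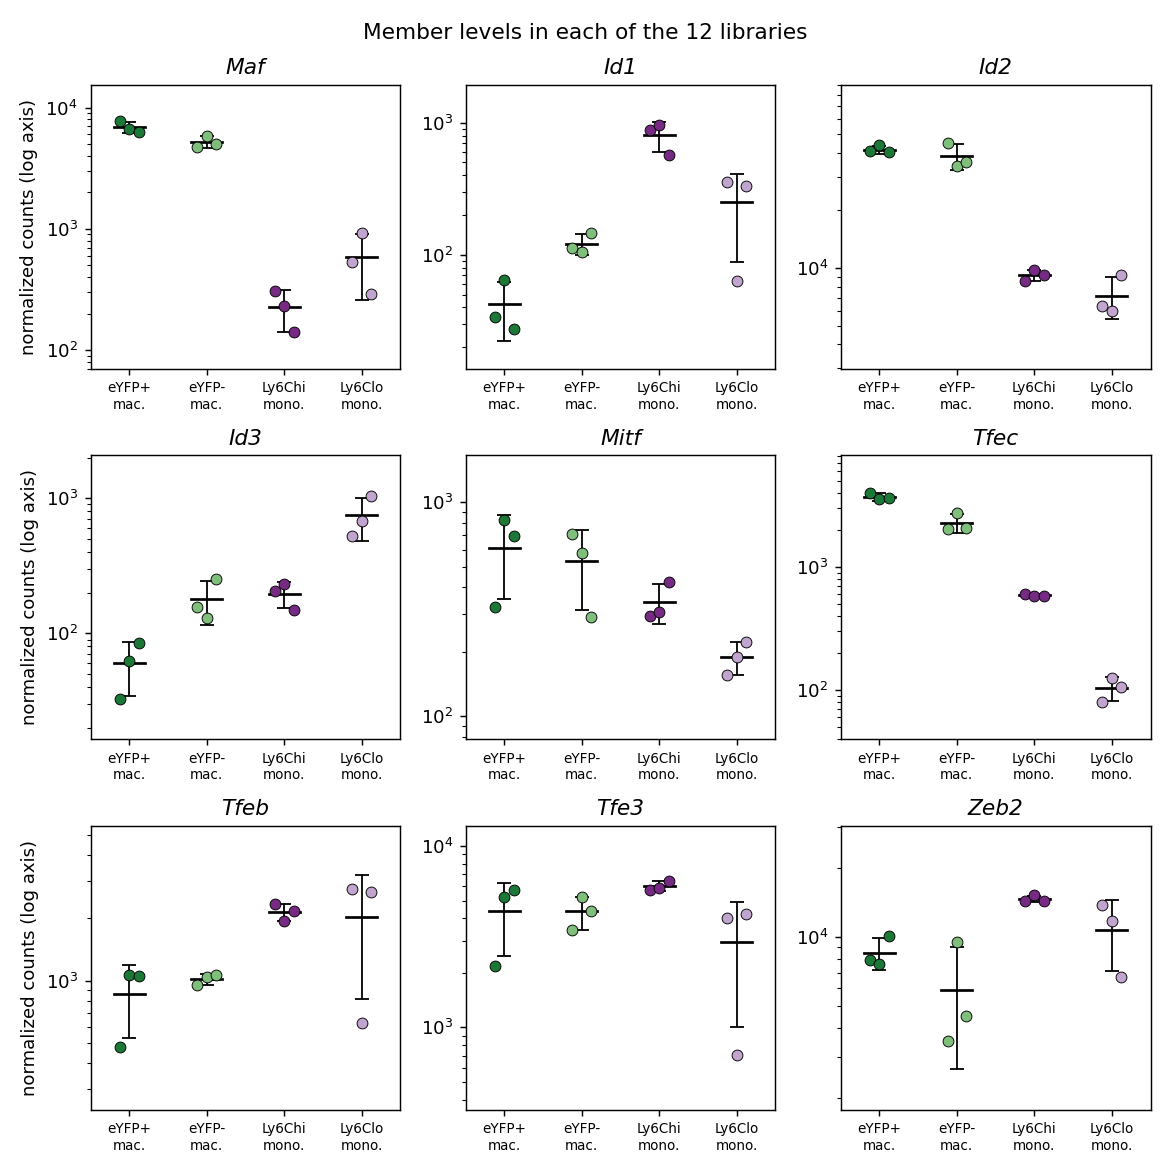
Normalized counts (y axis, log scale with a range of its own in each panel) of the 9 members in eYFP+ and eYFP- macrophages (mac.) and Ly6Chi and Ly6Clo monocytes (mono.), with 1 point per library, a line at the mean and bars of 1 SD (n = 3). Maf, Id2 and Tfec separate the cell types in all libraries, and the low point of Tfeb and Tfe3 in Ly6Clo monocytes is replicate 2.

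Between macrophages of embryonic and adult origin only Id3 passed the test, lower in eYFP+ macrophages, so that 1 of 9 members was called where 2.04% of the 21567 genes tested were called, 1.88% as lower and 0.153% as higher in eYFP+. The log2 fold change of Id3 was -1.58 ± 0.45 (adjusted p = 0.0298 by DESeq2), or 2.98-fold lower, and the highest eYFP+ library (84.4) was below the lowest eYFP- library (129). In 1 set of counts simulated for this comparison DESeq2 made more false calls than its threshold allows and edgeR did not. There edgeR also recovered fewer of the changes put in than DESeq2, so a missing call by edgeR does not show a lack of change. All groups were simulated from macrophage means, unlike the real libraries. The test of edgeR called none of the 9, and 0.334% of all genes, while 3 members had an unadjusted p under 0.05 with either tool. For Id3 the adjusted p was 0.198 with edgeR's quasi-likelihood test and 0.183 after correction for GC content and length. It was 0.149 without eYFP+ replicate 1, 0.114 without eYFP+ replicate 2, 0.0855 without eYFP- replicate 1, 0.352 without eYFP- replicate 3 and 0.0552 without Ly6Chi replicate 1. In the 25 other settings the value stayed negative, between -1.91 and -1.25, and was called in 13.

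The groups of normalized counts did not overlap for 4 members, Maf, Id1, Id3 and Tfec, as for 15.2% of all genes tested. Id1 was 121 ± 21.5 (SD, n = 3) in eYFP- and 42.1 ± 20.0 in eYFP+ macrophages, and the difference of -1.53 ± 0.58 on the log2 scale missed the threshold (adjusted p = 0.223 by DESeq2). Tfec was 3725 ± 261 in eYFP+ and 2273 ± 397 in eYFP- macrophages, and the difference of 0.71 ± 0.25 on the log2 scale also missed it (adjusted p = 0.127 by DESeq2). Both were called once Ly6Clo replicate 2 was left out of the shared fit, with adjusted p of 0.00186 for Id1 and 0.0187 for Tfec, and Tfec also without eYFP- replicate 2 (adjusted p = 0.0499). For the remaining members the intervals of eYFP+ minus eYFP- were wide, from -0.37 to 0.60 for Id2 and from -1.11 to 1.13 for Tfe3, the narrowest and the widest.

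The markers of other cell types also differed between the macrophage groups. Summed TPM of 9 erythroid markers was 8987 to 14512 in eYFP+ and 22319 to 35363 in eYFP- macrophages, and that of 8 stem and progenitor markers 5.72 to 12.4 and 51.5 to 111. For 9 neutrophil markers the sums were 120 to 207 and 208 to 2548, for 6 Ly6Chi monocyte markers 6.65 to 7.83 and 9.79 to 118, and for 10 stromal and endothelial markers 49.7 to 59.1 and 91.7 to 118. They were 22.1 to 27.1 and 31.8 to 50.7 for 8 dendritic cell markers, and 42736 to 45323 and 31246 to 37305 for the 10 bone marrow macrophage markers. That last list was the one here that was higher in eYFP+, as were the mean levels of Maf and Tfec, neither of which was called. For 7 osteoclast markers the sums were 455 to 512 and 515 to 540. Apart from 1 osteoclast marker in each group, no marker of these lists was at 0 in all libraries of either group. In these lists Klf1 and Car1, Kit, Cd34, Myb and Flt3, Mpo, Camp and Ngp, Ccr2, and Xcr1 and Cd209a were among those called lower in eYFP+ macrophages, Ctsk was called higher, and no macrophage, stromal or endothelial marker was called. Their part in the Id1, Id3, Maf and Tfec values was not tested.

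Between monocyte groups 4 of 9 members were called, where 8.62% of the 21567 genes tested were. Tfec and Id1 were higher in Ly6Chi (3.66% of all genes) and Maf and Id3 in Ly6Clo monocytes (4.97%). The test of edgeR called 2, Tfec and Id3, and 4.32% of all genes. Tfec showed the largest difference, a log2 fold change of 2.52 ± 0.26 (adjusted p = 3.13e-19 by DESeq2), with 104 ± 23.1 normalized counts in Ly6Clo and 590 ± 11.4 in Ly6Chi (SD, n = 3), so that Ly6Chi monocytes lay nearer to macrophages in this gene. Id3 was lower in Ly6Chi by -1.92 ± 0.44 (adjusted p = 0.000528 by DESeq2), and Tfec and Id3 were called in all 25 other settings. Counts of 6 members did not overlap, Id1, Id3, Mitf, Tfec, Tfe3 and Zeb2, as for 28.1% of all genes tested.

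Id1 was 803 ± 208 in Ly6Chi and 250 ± 162 in Ly6Clo monocytes, a log2 fold change of 1.68 ± 0.57 (adjusted p = 0.0408 by DESeq2 and 0.129 by edgeR). With the replicate number as a block the adjusted p was 0.0914 and with total-count scaling 0.0565, and leaving out any Ly6Chi or any eYFP- library also ended the call, with adjusted p from 0.055 to 0.192. Id1 was called in 11 of 25 other settings. Maf was 226 ± 84.5 in Ly6Chi and 581 ± 321 in Ly6Clo monocytes, a log2 fold change of -1.36 ± 0.44 (adjusted p = 0.0266 by DESeq2 and 0.0865 by edgeR). Its call was lost without Ly6Chi replicate 2 (adjusted p = 0.1), Ly6Chi replicate 3 (0.166) or Ly6Clo replicate 2 (0.137), and the 2 groups overlapped. Maf was called in 15 of 25 other settings. Dendritic cell markers (8 genes) summed to 623 to 2861 TPM in Ly6Clo and 126 to 139 TPM in Ly6Chi monocytes, and bone marrow macrophage markers (10 genes) to 737 to 1752 and 513 to 577 TPM. In the same order the sums were 16.3 to 35.3 and 0.853 to 3.87 TPM for T and NK cell markers, 60.3 to 77.4 and 2.13 to 4.08 for megakaryocyte, 459 to 628 and 21.5 to 32.5 for osteoclast, 64.1 to 118 and 7.17 to 41.3 for stromal and endothelial, and 628 to 1465 and 544 to 607 for B and plasma cell markers. None of these sums overlapped between the groups, and all were higher in Ly6Clo. Of the B and plasma cell markers 3 of 7 were at 0 in all Ly6Clo libraries, and of the osteoclast markers 2 of 7. The same held for 1 T and NK cell and 1 megakaryocyte marker. Neutrophil markers (9 genes) had a higher mean sum in Ly6Chi, 19826 against 10490 TPM in Ly6Clo, with ranges that overlapped. The part of these lists in the Id1, Id3, Maf and Tfec values was not tested.

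Set against each monocyte group apart, 6 of 9 members differed in eYFP+ macrophages from Ly6Chi monocytes (24.5% of all genes tested were called) and 6 from Ly6Clo monocytes (28%). In eYFP- macrophages it was 5 against each, with 27.4% and 26.3% of genes called. These comparisons share their groups. Id3 was among the 6 in eYFP+ against Ly6Chi, with a log2 fold change of -1.70 ± 0.45, while eYFP- against Ly6Chi gave -0.13 ± 0.45. Zeb2 was called in eYFP- against Ly6Chi, at -1.32 ± 0.41, whereas eYFP+ against Ly6Chi gave -0.78 ± 0.41 (adjusted p = 0.00726 and 0.172 by DESeq2). Against Ly6Clo neither macrophage group was called in Zeb2, with -0.88 ± 0.41 for eYFP- and -0.34 ± 0.41 for eYFP+ (adjusted p = 0.104 and 0.605 by DESeq2).

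Over the 12 libraries, on the deposited variance-stabilised scale, several members varied together. Pearson's r was 0.93 between Id2 and Tfec, 0.90 between Maf and Id2 and 0.81 between Mitf and Tfec, whereas it was -0.90 between Id3 and Tfec and -0.87 between Maf and Id1. It was 0.84 between Id1 and Tfeb. Values nearer to 0 were also found, with 0.11 between Id3 and Zeb2, both higher in monocytes, 0.09 between Tfe3 and Zeb2, -0.13 between Tfe3 and Maf and 0.20 between Tfe3 and Id2. Of 11052 genes searched, those most like Maf were Fmnl2 (r = 0.989), Kcnj10 and Lmbrd2, those most like Id2 were Uap1l1 (0.995), Mfsd11 and Ccdc148, and those most like Tfec were Kiss1r (0.982), Lipt2 and Ptafr. Id1 was most like Pdlim1 (0.986), Tiam1 and Palm, and Id3 most like Bcl2 (0.951), Tnip3 and Vegfc. Mitf was most like Tcp11l1 (0.896), Gde1 and Qrich1, Tfeb like Ubac2 (0.986), Frmd8 and Elmo2, Tfe3 like Sphk2 (0.992), Yipf3 and Slc25a22, and Zeb2 like Stag2 (0.958), Foxn2 and Relch. These values are descriptions, since all genes share the 4 groups and the skew of GC-poor libraries.

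Genes related to the members were read from 8 lists, whose counts stand against 20.3% of all genes tested called higher and 15.0% called lower in macrophages, 3.66% called higher and 4.97% lower in Ly6Chi monocytes, and 0.153% called higher and 1.88% lower in eYFP+ macrophages. Of the Maf relatives (10 tested), 3 were higher and 4 lower in macrophages, and the list's median was -0.42 on the log2 scale against 0.08 over all genes tested. Maff, a small Maf gene, was higher by 3.22 ± 0.94. Nfe2, a partner of small Maf proteins in erythroid and megakaryocytic cells, was lower by -3.18 ± 0.18, and Bach1, a heme-sensing repressor, by -2.45 ± 0.29. Nfe2 was also the only relative called between macrophages, lower in eYFP+ by -2.51 ± 0.26 (adjusted p = 4.3e-18 by DESeq2), beside the erythroid marker sums given above. Between monocytes Mafg was called, higher in Ly6Chi by 0.92 ± 0.28 (adjusted p = 0.0153 by DESeq2 and 0.0559 by edgeR).

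Macrophage genes linked to Maf factors (11 tested) had the largest median of the 8 lists. In macrophages 9 were higher and 1 lower, and their median was 6.36 on the log2 scale. The list was made of macrophage genes, and the study gated macrophages in part on CD206, the product of Mrc1. A high median was thus partly set by how genes and cells were chosen. Cd5l, a secreted scavenger receptor of macrophages, was higher by 8.18 ± 0.21 and the complement gene C1qb by 6.36 ± 0.26, while F13a1, which encodes a coagulation factor subunit, was lower by -6.67 ± 0.38. None of the 11 was called by DESeq2 or edgeR between the macrophage groups, and 1 had an unadjusted p under 0.05 by either. Between monocytes, 9 were lower in Ly6Chi and F13a1 was higher, with values of -4.66 ± 0.38 for C1qb and -4.40 ± 0.47 for C1qc. The test of edgeR called 8 of these 10, with adjusted p of 0.0841 for Il10 and 0.0592 for Mrc1.

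**Figure D4:**
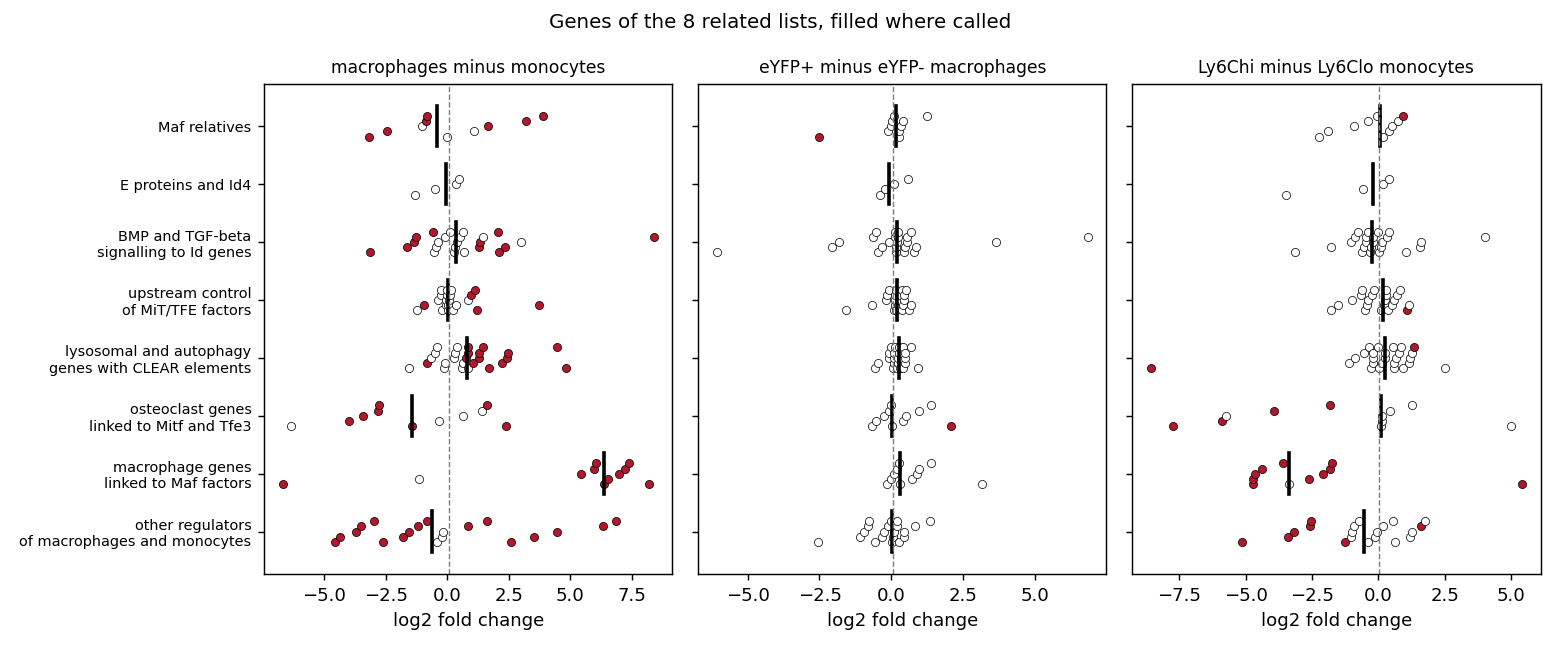
Log2 fold changes (x axis) of the genes tested in 8 related lists (y axis) in 3 comparisons, filled where called, with a bar at each list's median and a dashed line at the median of all genes tested. The Maf-linked genes have a median of 6.36 in macrophages minus monocytes, and 2 genes, Nfe2 and Ctsk, are filled between the macrophage groups.

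Of the BMP and TGF-beta genes (24 tested), 6 were higher and 5 lower in macrophages, with a median of 0.36 on the log2 scale. The ligand gene Bmp2 was higher by 8.39 ± 1.27, with a mean of 2004 normalized counts in macrophages and 9.87 in monocytes, and the type I receptor gene Acvrl1 by 2.06 ± 0.41. Bambi, a decoy receptor, was lower by -3.11 ± 0.52 and Smad4, the common partner of receptor-activated Smads, by -1.63 ± 0.28. None of the 24 was called by DESeq2 or edgeR between the macrophage groups, where 4 and 3 had an unadjusted p under 0.05, or between the monocyte groups, where 2 and 1 did.

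Of the genes acting upstream of the Mitf family (22 tested), 4 were higher and 1 lower in macrophages, beside 35.4% of all genes tested that were called in either direction. Rragd, a Rag GTPase gene that is itself a target of the family, was higher by 3.74 ± 0.70, and Flcn, which encodes a regulator of Rag GTPases, by 1.14 ± 0.30. Ppp3ca, a catalytic subunit gene of calcineurin, was lower by -0.94 ± 0.22. Between macrophages DESeq2 and edgeR called none, with 0 at an unadjusted p under 0.05, and Lamtor4 was called between monocytes, higher in Ly6Chi by 1.10 ± 0.23.

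Lysosomal and autophagy genes with CLEAR elements (26 tested) had 13 members called higher and 1 lower in macrophages and a median of 0.81, against 20.3% and 15.0% of all genes tested. The protease genes Ctsd and Ctsf were higher by 4.45 ± 0.20 and 4.84 ± 0.27, and Uvrag, an autophagy gene, was lower by -0.82 ± 0.20. Between eYFP+ and eYFP- macrophages DESeq2 and edgeR called none, and 1 gene had an unadjusted p under 0.05 by either. Between monocytes Lamp1 was higher in Ly6Chi by 1.36 ± 0.44 (adjusted p = 0.0303 by DESeq2 and 0.0735 by edgeR) and the proton pump gene Atp6v0d2 was lower by -8.58 ± 2.16.

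Osteoclast genes linked to Mitf and Tfe3 (11 tested) had a median of -1.44, with 2 higher and 5 lower in macrophages. Acp5, the tartrate-resistant phosphatase, was higher by 2.38 ± 0.20, and Tnfrsf11a, which encodes Rank, by 1.63 ± 0.28. The mean of Acp5 was 688 normalized counts in Ly6Chi but 10546 in Ly6Clo monocytes, beside 13552 in eYFP+ and 14545 in eYFP- macrophages. Ocstamp, which acts in osteoclast fusion, was lower by -2.78 ± 0.33 and the protease gene Ctsk by -2.81 ± 0.36. The fall of Ctsk is against Ly6Clo monocytes, in which it had a mean of 3000 normalized counts, against 14.1 in Ly6Chi monocytes. Ctsk and Acp5 were lower in Ly6Chi than in Ly6Clo by -7.73 ± 0.52 and -3.94 ± 0.28. Between macrophages Ctsk was called, higher in eYFP+ by 2.07 ± 0.51 (adjusted p = 0.0052 by DESeq2 and 0.112 by edgeR), with means of 60.2 and 14.3 normalized counts.

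Among 20 other regulators tested, 7 were higher and 10 lower in macrophages. Spic, the factor of red pulp and bone marrow macrophages, was higher by 6.86 ± 0.31 and Nr1h3, which encodes a liver X receptor, by 4.46 ± 0.22. Klf4 and Nr4a1, both factors of monocyte differentiation, were lower by -3.68 ± 0.24 and -3.50 ± 0.27. Between the macrophage groups DESeq2 and edgeR called none, with 3 and 2 at an unadjusted p under 0.05. In Ly6Chi monocytes Rxra was higher by 1.62 ± 0.47 (adjusted p = 0.0116 by DESeq2 and 0.0659 by edgeR), while Pparg and Bhlhe40 were lower by -5.14 ± 0.38 and -3.41 ± 0.33.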

How the data were processed

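RNA of 12 sorted bone marrow samples was sequenced from amplified full-length cDNA. The authors demultiplexed with bcl2fastq 2.20.0.422, aligned reads to GRCm39 and deposited counts of read pairs per gene from featureCounts. They also deposited TPM values and variance-stabilised values on a scale close to log2, made with DESeq2. No molecular identifiers were described, so reads are not independent molecules, and overlapping genes or near-identical copies lose or share reads. Groups came from the sample labels. Depth was 26390927 to 48618187 counts per library.

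Counts were tested here with DESeq2 1.42.0 in R 4.3.3, in 1 fit over the 12 libraries with median-of-ratios size factors, Wald tests and Benjamini-Hochberg adjustment over all genes tested, called under 0.05. Log2 fold changes are unshrunken, and calls rest on the spread shared by all 4 groups. In 1 set of counts simulated for eYFP+ minus eYFP-, known changes were put in. The share of false calls was well above the threshold with DESeq2 and below it with edgeR. There edgeR recovered fewer of the known changes than DESeq2, and all 4 groups were drawn from macrophage means, unlike the real libraries. Member calls near the threshold in the 3 main comparisons are therefore given with both tools. DESeq2 was kept as the authors' method. Alternatives were edgeR 4.0.16, limma 3.58.1 on log2 of TPM with a pseudocount of 1 or 0.1 (genes with TPM of at least 1 in 3 libraries, or no filter), TMM or total-count scaling, filters on low counts, no outlier cutoff, a replicate block, a GC and length correction, fits on the libraries of a comparison and leaving out each library. Leaving out Ly6Clo replicate 2 together with eYFP+ replicate 1 was chosen after seeing the data.

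All 9 members are named. For each list and comparison the 2 genes with the lowest adjusted p in each direction were named, with further genes where a result turned on them (some genes the rule names are not reported here), and for each member the 3 genes with the highest Pearson correlation (symbol given, mean of at least 50 normalized counts, no predicted-gene names). Members, lists and motifs were chosen with earlier results of these data known. Symbols matched 91.4% of identifiers (GENCODE M21, of another build than the tables). Of 103 marker symbols 102 matched, and Ahsp did not. Promoter sequences are from RefSeq GRCm38.p6.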

Additional observations from a re-analysis of the deposited data

How the results depend on the processing

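The count of members called between macrophages and monocytes was within 1.5 times of 8 in all alternatives run, and leaving out each library gave 7 to 8. Between the macrophage groups the count of 1 became 0 with edgeR, without independent filtering, in the 3 limma fits, with the libraries of the comparison only and with the GC and length correction, 2 with a minimum of 10 counts in 3 libraries (Tfec gained), and 3 without Ly6Clo replicate 2 and eYFP+ replicate 1 together (Id1 and Tfec gained); leaving out each library gave 0 to 3. Between the monocyte groups the count of 4 became 2, with Id1 and Maf lost, with edgeR, without independent filtering, in the 3 limma fits and with the libraries of the comparison only, and leaving out each library gave 2 to 4. The cause was not tested. With edgeR, 3 members had an unadjusted p under 0.05 between the macrophage groups.

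Reversed values were all of differences that had not been called. Tfe3 in macrophages minus monocytes was -0.16 with the GC and length correction, -0.07 without both GC-poor libraries and -0.24 to 0.21 when single libraries were left out. Tfe3 in eYFP+ minus eYFP- macrophages was -0.01 with edgeR, -0.02 with TMM, -0.09 with total counts, -0.03 with the replicate block, -0.12, -0.13 and -0.12 in the limma fits, 0.00 with the libraries of the comparison only, -0.03 with the GC correction and -0.23 to 0.33 when single libraries were left out. Tfeb there was 0.12 with the GC correction, -0.41 to 0.05 when single libraries were left out (0.05 without eYFP+ replicate 1) and 0.04 without both libraries, and Mitf was -0.08 to 0.52, at -0.06 without eYFP+ replicate 2 and -0.08 without eYFP- replicate 3. Tfeb in Ly6Chi minus Ly6Clo monocytes was -0.11 with the GC correction and -0.34 without Ly6Clo replicate 2, alone or with eYFP+ replicate 1, and reached 0.38 when other libraries were left out. Total-count scaling shifted the median of all genes in eYFP+ minus eYFP- by -0.106 on the log2 scale.

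Deviations of same-numbered macrophage libraries from their group means correlated at 0.456, 0.332 and 0.152 over the 2000 genes of highest mean but at 0.291, 0.147 and 0.0449 over 19228 genes, and those of monocytes at 0.307, 0.0314 and -0.0111, so the numbers were not taken as pairs. With the replicate block the adjusted p of Id3 in eYFP+ minus eYFP- was 0.00914, and of the member calls only that of Id1 between monocytes changed. Id1 and Id3 had the lowest counts of the members in macrophages, at 27.4 to 254 normalized counts per library, and whether depth or the spread between libraries limits their tests was not tested.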
